A study of Mus musculus with 12 samples.

Results

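The Hox genes of the 4 mammalian clusters were taken as every gene whose symbol is Hoxa, Hoxb, Hoxc or Hoxd followed by a number and that is listed in both deposited tables. The rule gave 39 of 23790 genes, with 11 in the Hoxa cluster, 10 in Hoxb, 9 in Hoxc and 9 in Hoxd. The study asked how C15ORF48 and the microRNA miR-147, which come from a shared locus, act on inflammation of the gut. RNA-seq of polyadenylated RNA was made from purified mouse colonocytes, the absorptive epithelial cells of the colon. There were 3 libraries in each of 4 groups: KO DSS and WT DSS colonocytes, from mice that received 3% DSS, a sulfated dextran that damages the gut lining, for 3 days, and KO untreated and WT untreated colonocytes. KO means that the C15ORF48/miR-147 locus is lacking and WT that it is present. The labels give no strain, age or sex and no method of deletion, do not say if each library is its own mouse, and do not say which stretch of colon was taken. The protocol text gives DSS throughout, whereas 6 libraries have none as treatment, and that field was followed together with titles and design text.

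Hox genes encode homeodomain transcription factors that give cells along the head-to-tail axis their positional identity. Within each cluster the genes lie in the order of their paralog numbers, and genes with high numbers are used nearer the tail end. The adult gut epithelium keeps part of this code, so that posterior genes such as Hoxb13 and Hoxd13 mark the distal colon and rectum while central Hoxb genes are stronger in the proximal colon. The share of Hox RNA that comes from posterior genes is therefore used here as a read-out of position. In bulk RNA, fewer cells of a kind and less RNA per cell cannot be told apart.

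All values are RPKM, reads scaled to gene length and library depth, so levels of different genes are compared per length. Reads per library ran from 12621697 to 16707030 under DSS and from 20606918 to 26839250 in untreated colonocytes. AA467197, the mouse gene of C15ORF48, checked the labels: it had 6.54, 7.33 and 9.19 RPKM in KO DSS, against 403, 370.3 and 515 RPKM in WT DSS libraries. In untreated colonocytes it had 5.67, 4.35 and 4.03 RPKM in KO, against 430.1, 442 and 430.2 RPKM in WT libraries. Summed over 12 genes, epithelial markers were at 10877 RPKM or more in every library. Markers of smooth muscle, glia and endothelium summed to at most 12.2, 1.83 and 2.62 RPKM. Fibroblast markers summed to 1.74 to 7.78 RPKM in 11 libraries and to 30.7 RPKM in replicate 3 of WT untreated, where Dcn alone had 23.6 RPKM.

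Of the 39 genes, 24 reached a mean of 1 RPKM in at least 1 group: 9 in Hoxa, 9 in Hoxb, 6 in Hoxd and 0 in Hoxc. The Hoxa cluster lies on chromosome 6, Hoxb on chromosome 11 (96194316 to 96368256 in GRCm38, GENCODE vM21 gene models), Hoxc on chromosome 15 (102921103 to 103036852) and Hoxd on chromosome 2 (74668310 to 74765142). The Hoxc cluster was close to silent: no gene passed 0.111 RPKM or 3 reads in any library, 22 reads fell on its 9 genes over the 12 libraries, and Hoxc11, Hoxc12 and Hoxc13 had 0 reads. Differences within Hoxc were not detectable at this depth. The other 6 genes under the level had at most 1.07 RPKM and 85 reads in a library.

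The promoters of the 3 Hox genes that differed between KO and WT under DSS are shown, since these genes carry the tested result: Hoxa13 and Hoxa9, posterior Hoxa genes, and Hoxb8, a central Hoxb gene. They are RefSeq windows on GRCm38.p6, 250 bases before to 50 after the start, each 300 bases. Hoxa13 lies at chr6:52260831-52261130 on the minus strand, Hoxa9 at chr6:52227321-52227620 on the minus strand and Hoxb8 at chr11:96281655-96281954 on the plus strand. The Hoxa9 window lies inside the GENCODE span of the gene, 52223100 to 52231089, and no window at the upstream end of that span is shown. Capitals mark TTTATNG on either strand, a sequence of the type that caudal (CDX) and posterior HOX homeodomains recognise.
Hoxa13: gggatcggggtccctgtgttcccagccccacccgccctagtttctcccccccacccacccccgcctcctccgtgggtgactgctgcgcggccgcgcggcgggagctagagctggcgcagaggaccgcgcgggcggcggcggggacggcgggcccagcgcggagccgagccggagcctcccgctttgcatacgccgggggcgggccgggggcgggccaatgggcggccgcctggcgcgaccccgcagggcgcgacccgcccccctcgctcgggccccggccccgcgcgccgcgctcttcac
Hoxa9: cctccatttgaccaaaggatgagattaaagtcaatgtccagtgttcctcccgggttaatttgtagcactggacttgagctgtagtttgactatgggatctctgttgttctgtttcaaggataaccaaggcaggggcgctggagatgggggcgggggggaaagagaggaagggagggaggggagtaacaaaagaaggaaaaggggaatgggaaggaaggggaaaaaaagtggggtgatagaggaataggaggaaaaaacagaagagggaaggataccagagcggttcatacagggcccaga
Hoxb8: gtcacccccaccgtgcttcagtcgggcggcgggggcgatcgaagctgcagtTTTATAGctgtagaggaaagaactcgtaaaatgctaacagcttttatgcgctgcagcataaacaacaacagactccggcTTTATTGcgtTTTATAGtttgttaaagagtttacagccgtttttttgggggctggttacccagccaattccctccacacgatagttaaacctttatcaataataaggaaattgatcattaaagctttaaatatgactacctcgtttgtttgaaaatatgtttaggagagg
TTTATNG occurred 3 times in the Hoxb8 window, 2 of them overlapping TATAAA read on the other strand, and 0 times in the Hoxa13 and Hoxa9 windows. It was found in 10.9% of the 32851 promoter windows of the table and in 2 of the 24 windows that belong to 22 Hox genes (Hoxb8 and Hoxd4). GC content was 81.0% for Hoxa13, 49.7% for Hoxa9 and 42.3% for Hoxb8. Hoxb6, Hoxb7, Hoxb9 and Hoxb13 have no window in the table.

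**Figure D1:**
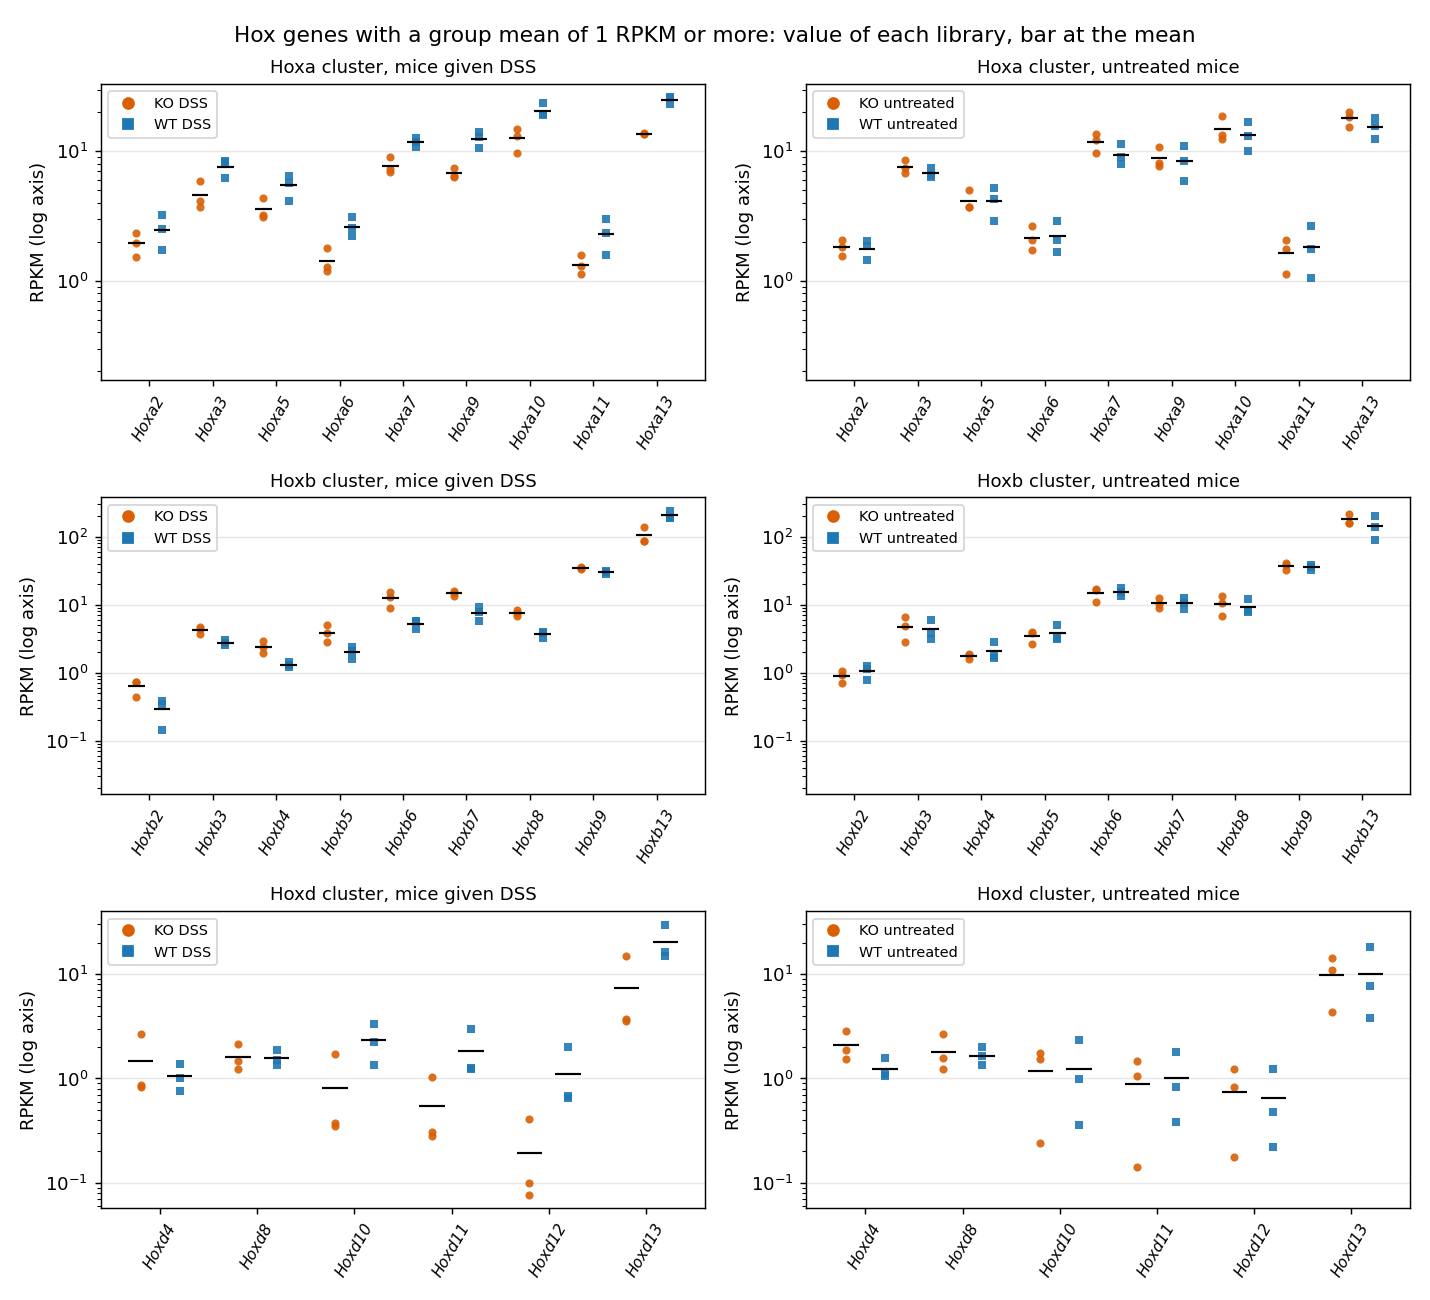
RPKM of the 24 Hox genes with a group mean of 1 or more, on a log axis, for each library (orange circles KO, blue squares WT; black bars are group means, n = 3), with DSS on the left and untreated on the right. Under DSS the Hoxa genes and Hoxb13 lie lower in KO than in WT while Hoxb3 to Hoxb8 lie higher, and the untreated groups overlap for every gene tested.

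Under DSS, Hoxb8 rose 2.04-fold in KO relative to WT, and Hoxa13 and Hoxa9 fell to 0.547 and 0.542 of their WT means (ratios of mean RPKM). Around them, mean levels of Hoxb3 to Hoxb7 were above WT, and those of the other tested Hoxa genes, Hoxb13 and Hoxd10, Hoxd11 and Hoxd13 were below WT, without passing the adjusted threshold. Of 22 Hox genes tested with limma on log2(RPKM + 1), those 3 passed an adjusted p under 0.05, where 0.764% of the 10990 genes tested passed. The 1 higher and 2 lower genes stand beside 0.446% and 0.318% of all genes. The adjustment was that of Benjamini and Hochberg, with every gene tested in it. At an unadjusted p under 0.05 there were 18 of 22, 6 higher and 12 lower, against 18.7% of all genes, 9.85% higher and 8.83% lower. KO DSS and WT DSS libraries did not overlap for 16 of the 22, 7 higher and 9 lower, against 23.0% of all genes, 11.1% higher and 11.9% lower. The 12 take in Hoxd10 and Hoxd11, and the 9 take in Hoxd11. These genes passed the filter through the WT DSS libraries, where they are high, which favours their place among the lower genes. The median log2 fold change was -0.49 over the 22 Hox genes and -0.0061 over all genes tested. The count of 3 depended on single libraries: leaving out KO DSS replicate 1, 2 or 3 gave 12, 3 or 0, and leaving out WT DSS replicate 1, 2 or 3 gave 0, 0 or 1. It was also 0 with no filter on low values and 8 with the trend over gene length removed. The sign was kept by 21 of the 22 under every alternative run, Hoxd8 being the exception. That was largely fixed in advance. Another filter, no variance trend or a replicate block leaves the log2 difference of a gene as it is. Leaving out 1 library cannot turn the sign of the 16 genes whose groups did not overlap.

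Hoxb13, the most abundant Hox gene of every library and a mark of distal colon epithelium, had 140.3, 86.7 and 87.7 RPKM in KO DSS, against 191, 239 and 189 RPKM in WT DSS. All KO libraries lay below all WT libraries, with KO DSS replicate 1 nearest to them. The means were 105 ± 30.7 RPKM in KO DSS and 206 ± 28.2 RPKM in WT DSS (SD, n = 3 each), a log2 difference of -0.999 (SE 0.21, limma adjusted p = 0.069), which did not pass the threshold. Hoxb13 (ENSMUSG00000049604.3) lies on the plus strand of chromosome 11, 96194316 to 96197447.

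Hoxa13, a posterior gene needed for the hindgut, the limbs and the genital tract, had 13.6, 13.5 and 13.8 RPKM in KO DSS, against 26.2, 25.6 and 23.0 RPKM in WT DSS. The KO libraries lay within a narrow band and far below the WT libraries. The log2 difference was -0.82 (SE 0.11, limma adjusted p = 0.034), with 226 to 284 reads in KO and 486 to 570 reads in WT libraries. Its adjusted p ran from 0.0109 to 0.189 over 13 alternatives, and the call was kept in 9 of them. Hoxa13 (ENSMUSG00000038203.18) lies at 52257694 to 52260880 on the minus strand of chromosome 6.

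Hoxa9, best known from blood stem cells and leukaemia, had 7.41, 6.36 and 6.48 RPKM in KO DSS, against 14.04, 12.8 and 10.5 RPKM in WT DSS. Again every KO library was below every WT library. The log2 difference was -0.79 (SE 0.14, limma adjusted p = 0.0463). The call held in 6 of 13 alternatives, with an adjusted p of 0.0149 to 0.244. Hoxa9 (ENSMUSG00000038227.15) lies at 52223100 to 52231089.

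The other tested Hoxa genes lay on the same side without passing the threshold. All 9 tested Hoxa genes had a log2 difference below 0, with a median of -0.58 and a range of -0.82 to -0.23. Hoxa10, a regulator of the uterus and posterior skeleton, had 14.9, 9.70 and 13.2 RPKM in KO DSS, against 19.1, 19.4 and 23.4 RPKM in WT DSS (log2 difference -0.68, SE 0.17, limma adjusted p = 0.104). Hoxa7 had 9.07, 6.96 and 7.24 RPKM in KO DSS, against 11.9, 10.7 and 12.7 RPKM in WT DSS (-0.55, SE 0.14, limma adjusted p = 0.109). Hoxa3, which patterns the thymus and parathyroid, had 5.87, 4.16 and 3.70 RPKM in KO DSS, against 8.48, 8.20 and 6.18 RPKM in WT DSS (-0.64, SE 0.18, limma adjusted p = 0.134). The groups did not overlap for these 3 or for Hoxa6 and Hoxa11, which had 1.12 to 1.79 RPKM in KO DSS and 1.57 to 3.09 RPKM in WT DSS. Hoxa11 touched: its highest KO DSS library and lowest WT DSS library both round to 1.57 RPKM. Hoxa4, under the filter, lay on the other side, with 0.723, 0.573 and 0.726 RPKM in KO DSS, against 0.537, 0.386 and 0.569 RPKM in WT DSS, and did not overlap. These values rest on few reads, 14 to 17 in KO DSS and 10 to 14 in WT DSS libraries. Hoxa5, a lung and gut mesenchyme regulator, and Hoxa2, a hindbrain gene, overlapped between the groups. Hoxa3 spans Hoxa4, Hoxa5 and Hoxa6 in the annotation, and Hoxa11 is overlapped on the other strand by the transcript Hoxa11os. How the authors' counting dealt with shared or antisense reads is not given in the sources used here. The values of these Hoxa genes, and of Hoxa3 beside its antisense neighbour Hoxaas3, are therefore uncertain.

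The Hoxb genes from Hoxb3 to Hoxb8 lay on the other side of 0 from Hoxa. Hoxb8, a regulator of myeloid cells and of the thoracic spine, had 7.47, 6.88 and 8.33 RPKM in KO DSS, against 3.28, 3.86 and 3.97 RPKM in WT DSS. All KO libraries exceeded all WT libraries. The log2 difference was 0.86 (SE 0.13, limma adjusted p = 0.034), from 250 to 337 reads in KO and 137 to 173 reads in WT libraries. The call held in 8 of 13 alternatives, with an adjusted p of 0.0122 to 0.204. Hoxb8 (ENSMUSG00000056648.5) lies at 96281905 to 96285315 on the plus strand of chromosome 11.

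Hoxb6 and Hoxb7 are neighbours of Hoxb8 with shared roles in the thoracic spine. Hoxb6 had 15.6, 8.86 and 12.9 RPKM in KO DSS, against 5.79, 4.37 and 5.69 RPKM in WT DSS, a log2 difference of 1.07 (SE 0.20, limma adjusted p = 0.0506). Hoxb7 had 14.9, 13.4 and 15.9 RPKM in KO DSS, against 7.73, 5.77 and 9.21 RPKM in WT DSS, a log2 difference of 0.89 (SE 0.17, limma adjusted p = 0.0514). Both lay just outside the threshold and neither overlapped between groups. Hoxb3, Hoxb4, known from blood stem cells, and Hoxb5 showed log2 differences of 0.47, 0.54 and 0.68 (limma adjusted p = 0.131, 0.121 and 0.131), also with no overlap. Hoxb9, second to Hoxb13 by mean RPKM in each group, had 35.5, 35.1 and 33.1 RPKM in KO DSS, against 30.5, 28.7 and 31.8 RPKM in WT DSS, a log2 difference of 0.18 (SE 0.11, limma adjusted p = 0.375). It stands between the central Hoxb genes and Hoxb13 in the cluster, and its difference lay between theirs. Hoxb2 stayed under the filter of 1 RPKM in at least 3 of the 6 DSS libraries, with 0.441 to 0.730 RPKM in KO DSS and 0.145 to 0.382 RPKM in WT DSS. In the authors' deposited table, 6 Hox genes had a false discovery rate under 0.05 under DSS, where 0.866% of all genes did: Hoxb8, Hoxa13, Hoxb6, Hoxa9, Hoxb13 and Hoxb7.

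Among the DSS libraries, Hoxd10 to Hoxd13 were lowest in KO DSS replicates 2 and 3, where they summed to 4.48 and 4.30 RPKM. Untreated libraries of both genotypes held similar sums, 4.88 RPKM in KO untreated replicate 5 and 4.78 RPKM in WT untreated replicate 3. Hoxd13, which patterns the limbs and the end of the gut, had 15.0, 3.72 and 3.56 RPKM in KO DSS, against 16.3, 29.6 and 14.8 RPKM in WT DSS. KO DSS replicate 1 fell within the WT range and the other KO libraries far below it. The log2 difference was -1.54 (SE 0.45, limma adjusted p = 0.148), and it was -2.13 without KO DSS replicate 1. Hoxd10 had 1.71, 0.372 and 0.353 RPKM in KO DSS, against 2.26, 3.35 and 1.34 RPKM in WT DSS, with the same KO library within the WT range. Hoxd11 had 1.03, 0.282 and 0.310 RPKM in KO DSS, against 1.26, 2.97 and 1.24 RPKM in WT DSS, without overlap. The log2 differences of Hoxd10 and Hoxd11 were -0.91 and -0.85 (limma adjusted p = 0.184 and 0.156). Both genes reached 1 RPKM in every WT DSS library and in KO DSS only in replicate 1. The WT DSS libraries thus carried them past the filter, which favours their place among the lower genes. Hoxd12 was below the filter and did not overlap between the groups, with 3 to 13 reads in KO DSS and 26 to 86 reads in WT DSS libraries. Hoxd4 and Hoxd8 at the other end of the cluster had log2 differences of 0.19 and 0.02, and Hoxd8 turned to -0.12 when KO DSS replicate 1 was left out and to -0.05 when WT DSS replicate 2 was. Hoxd4 and Hoxd3 overlap in the annotation, so their values are uncertain.

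**Figure D2:**
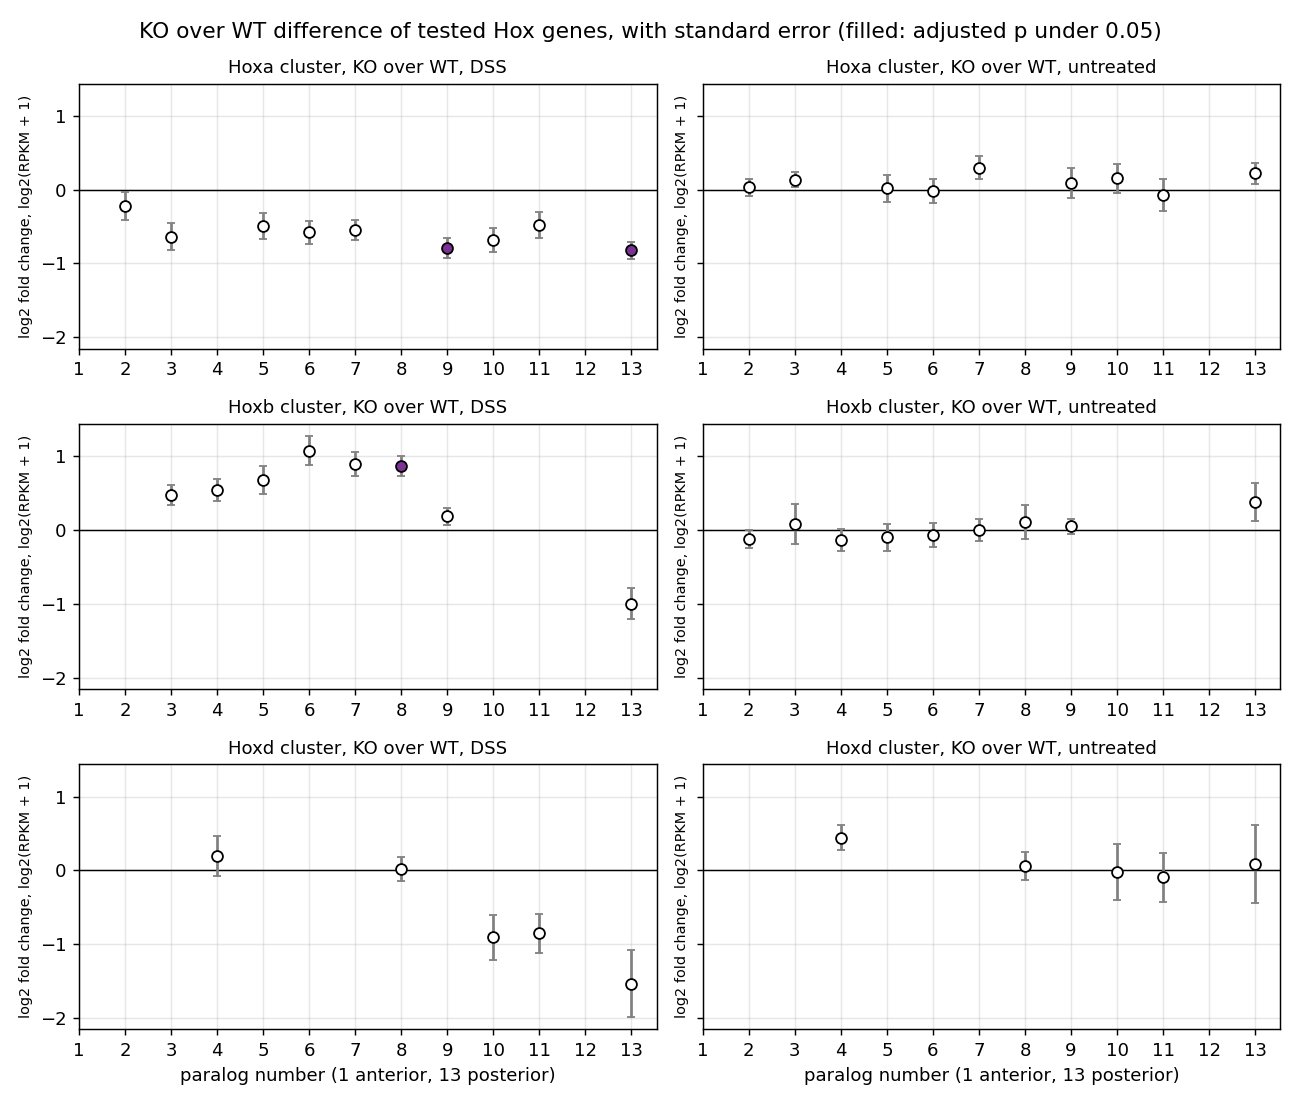
Log2 difference of KO over WT on the log2(RPKM + 1) scale, with its standard error, against paralog number for the Hoxa, Hoxb and Hoxd clusters (DSS left, untreated right; filled points have an adjusted p under 0.05). Under DSS the Hoxa points all lie below 0 and the Hoxb points lie above 0 up to Hoxb9 and at -0.999 for Hoxb13; in untreated colonocytes the points range from -0.14 to 0.44.

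In untreated colonocytes no tested Hox gene separated KO from WT. Of 23 tested, 0 passed limma's adjusted threshold, where 0.0181% of the 11072 genes tested did. At an unadjusted p under 0.05 there was 1, Hoxd4 (limma log2 difference 0.44), against 9.09% of all genes. The groups overlapped for all 23, while 16.0% of all genes tested did not overlap. Of the genes under the filter, Hoxd3 had 0.393, 1.07 and 0.462 RPKM in KO untreated, against 0.352, 0.316 and 0.308 RPKM in WT untreated, without overlap. Hoxc6 did not overlap either, at 0.0256 RPKM or less in KO untreated and 0.0274 to 0.0887 RPKM in WT untreated, which are values of a few reads. The median log2 difference was 0.05 over the Hox genes and 0.01 over all genes. Hoxb13 had 216, 159.8 and 161 RPKM in KO untreated, against 199.8, 140.3 and 90.0 RPKM in WT untreated (log2 difference 0.38, SE 0.26, limma adjusted p = 0.659). Hoxa13 had 20.1, 15.4 and 18.4 RPKM in KO untreated, against 15.6, 17.9 and 12.5 RPKM in WT untreated. Hoxb8 had 6.95, 13.5 and 10.6 RPKM in KO untreated, against 8.47, 7.77 and 12.04 RPKM in WT untreated. Hoxd13 ranged from 4.32 to 14.3 RPKM in KO untreated and from 3.82 to 18.3 RPKM in WT untreated, so libraries of 1 group differed more than the groups did. The authors' deposited table gave 0 Hox genes a false discovery rate under 0.05 in untreated colonocytes, where 0.00841% of all genes did. No Hox gene passed in untreated colonocytes under any of the alternatives run.

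The interaction of genotype with DSS was fitted over the 12 libraries. Hoxa13 passed, with a difference of differences of -1.04 on the log2 scale (SE 0.18, limma adjusted p = 0.0342). It was 1 of 24 Hox genes, where 1.40% of the 11306 genes tested passed, and the count was 0 to 4 when single libraries were left out. Leaving out KO DSS replicate 1 gave 4, WT DSS replicate 3 gave 3, and KO DSS replicate 2 gave 2. Leaving out KO DSS replicate 3, WT DSS replicate 1 or 2, any of the KO untreated libraries, or WT untreated replicate 1 or 3 gave 0. At an unadjusted p under 0.05 there were 13 of 24, against 19.0% of all genes. Hoxa was below 0 in 9 of 9, Hoxb above 0 in 8 of 9, all but Hoxb13, and Hoxd below 0 in 6 of 6. The 13 were 6 Hoxa and 7 Hoxb genes, with 0 of the Hoxd genes among them. Hoxd8, at -0.04, changed sign in 4 of 18 alternatives. Hoxb2 and Hoxd12 were tested here but not under DSS alone. Each difference is taken within a table, and DSS and table cannot be told apart.

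Set side by side with no test, it was WT DSS more than KO DSS that lay apart from the untreated libraries. WT DSS libraries lay below all the other 9 for 6 of 24 Hox genes (Hoxb2, Hoxb4, Hoxb5, Hoxb6, Hoxb8 and Hoxb9), where 2.20% of all genes did so. They lay above all others for Hoxa10 and Hoxa13, where 1.64% did. Hoxb2 passed the filter only through untreated libraries and had less than 1 RPKM in every DSS library. The filter thus favoured its place among the 6. Hoxb6 spanned 4.37 to 5.79 RPKM in WT DSS and 8.86 to 17.7 RPKM in the other 9. KO DSS libraries lay above the other 9 for Hoxb7, where 5.16% of all genes did so, and below them for Hoxa3, where 6.33% did. The 2 tables were scaled separately, which such a comparison across them does not correct.

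As a read-out of position, the share of all Hox RPKM that came from paralog groups 9 to 13 was 74.3%, 72.6% and 69.9% in KO DSS, against 83.5%, 87.2% and 84.4% in WT DSS. The groups did not overlap, and their means, 72.3 ± 2.19% and 84.99 ± 1.93% (SD, n = 3 each), differed by -12.7 percentage points, or by -7.05 points with the Hoxb cluster left out. The share was 81.7%, 74.1% and 75.8% in KO untreated, against 80.4%, 76.7% and 66.4% in WT untreated, which overlapped. Central groups 4 to 8 made up 23.0 ± 2.09% in KO DSS and 11.4 ± 1.68% in WT DSS. The ratio of Hoxb13 to Hoxb8, a posterior and a central gene of the same cluster, was 18.8, 12.6 and 10.5 in KO DSS, against 58.4, 61.9 and 47.6 in WT DSS. In untreated colonocytes it was 31.1, 11.8 and 15.2 in KO, against 23.6, 18.1 and 7.47 in WT. Within the untreated groups, KO replicate 2 was the most posterior library and WT replicate 3 the least, and WT untreated replicate 3 also carried the 30.7 RPKM of fibroblast markers, whose part in its value was not tested.

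**Figure D3:**
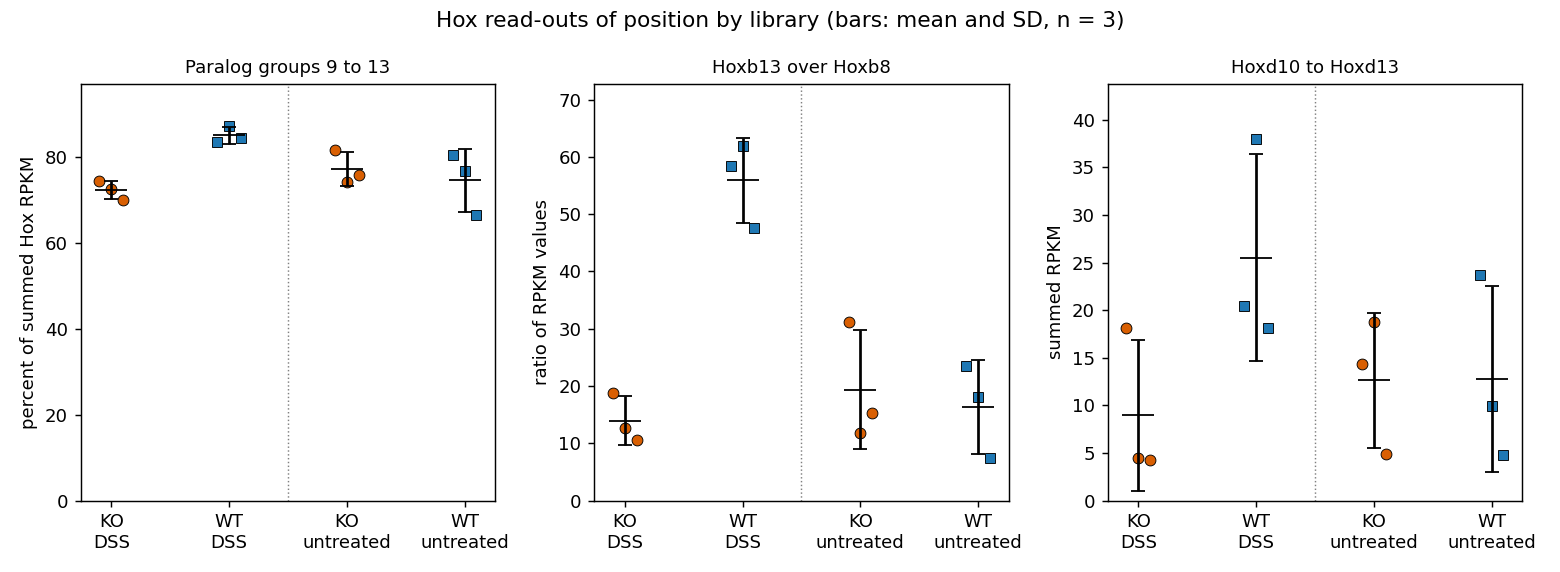
Share of Hox RPKM from paralog groups 9 to 13 (percent), ratio of Hoxb13 to Hoxb8, and summed RPKM of Hoxd10 to Hoxd13 for each library (points; orange KO, blue WT), with mean and SD (n = 3). The WT DSS libraries hold the highest shares and ratios of the 12, at 83.5% to 87.2% and 47.6 to 61.9.

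The balance inside the Hoxb cluster rests largely on the same values as the posterior share and is not a separate line of evidence. Hoxb made up 72.6% to 74.4% of Hox RPKM in KO DSS and 67.2% to 69.3% in WT DSS libraries. Hoxb2 to Hoxb8 summed to 50.3, 39.3 and 48.2 RPKM in KO DSS, against 23.1, 21.0 and 24.7 RPKM in WT DSS, with no overlap. They summed to 34.6, 56.5 and 49.1 RPKM in KO untreated, against 44.7, 38.6 and 57.3 RPKM in WT untreated, where the groups overlapped. The 11 Hoxa genes summed to 54.4 ± 6.64 RPKM in KO DSS and 91.1 ± 4.10 RPKM in WT DSS (SD, n = 3 each), and to 71.7 ± 10.9 RPKM in KO untreated and 64.1 ± 13.3 RPKM in WT untreated. All 9 tested Hoxa genes had lower means in KO DSS, Hoxa2 and Hoxa3 included, while in Hoxb the sign of the difference changed between Hoxb9 and Hoxb13. KO DSS replicate 1 had the highest value of its group for 17 of the 22 tested Hox genes.

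**Figure D4:**
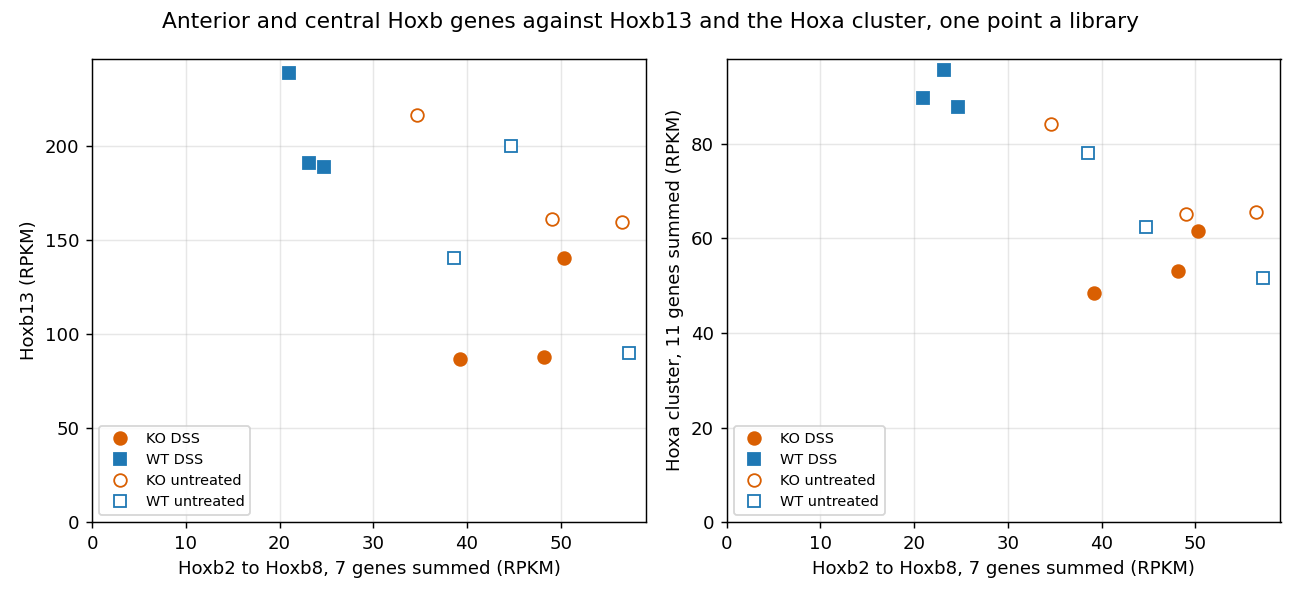
Summed RPKM of Hoxb2 to Hoxb8 on the x axis against Hoxb13 (left) and the summed Hoxa cluster (right), 1 point a library (orange circles KO, blue squares WT; filled DSS, open untreated). WT DSS libraries stand at 21.0 to 24.7 RPKM of Hoxb2 to Hoxb8 with 189 to 239 RPKM of Hoxb13, while KO DSS libraries stand at 39.3 to 50.3 RPKM, within the untreated range on that axis. Hoxb13 was at 86.7 and 87.7 RPKM in KO DSS replicates 2 and 3, below the lowest untreated library at 90.0 RPKM.

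Transcripts beside the clusters were read from a list of 21 names, of which 18 were in the tables and 10 were tested under DSS. Hottip, a long non-coding RNA known from human cells to keep posterior HOXA genes on, lies next to Hoxa13 (chromosome 6, 52262775 to 52267603, plus strand). It had 11.3, 10.7 and 8.79 RPKM in KO DSS, against 18.9, 19.1 and 19.8 RPKM in WT DSS. It fell by 0.85 on the log2 scale (limma adjusted p = 0.034) and was the 1 gene of the list to pass. That is 1 of 10, where 0.764% of all genes tested passed. Hoxa11os, which overlaps Hoxa11 on the other strand, had 30.9, 14.7 and 15.2 RPKM in KO DSS, against 44.6, 46.5 and 32.9 RPKM in WT DSS (log2 difference -1.06, limma adjusted p = 0.109). Of the 10 tested, 9 had a log2 difference below 0 and 1, Mtx2 beside Hoxd, above it (0.25). The median was -0.11, against -0.0061 over all genes tested. At an unadjusted p under 0.05 there were 2 lower and 0 higher, against 8.83% and 9.85% of all genes. The flanking genes Skap2, Snx11, Calcoco1 and Lnpk were at -0.05, -0.02, -0.05 and -0.11. Hotair was listed at 0 in all 12 libraries.

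No gene passed under DSS in the lists of patterning factors, TALE cofactors, Polycomb and Trithorax genes and retinoic acid genes. An unadjusted p under 0.05 was reached by 18.7% of all genes, with 9.85% of all genes higher in KO DSS and 8.83% lower. Among 13 tested patterning factors of the gut, 0 passed limma's adjusted p, with 2 higher and 6 lower at an unadjusted p under 0.05. Cdx1 and Cdx2, caudal factors that sit above the Hox genes in the gut, had log2 differences of -0.24 and 0.44 (limma adjusted p = 0.369 and 0.252). In the difference of differences, Foxa2, an endoderm forkhead factor, passed at -1.13 (limma adjusted p = 0.0356), 1 of 13 against 1.40% of all genes. Of the TALE cofactors that bind DNA with Hox proteins 5 of 9 were tested and 0 passed, with 1 lower at an unadjusted p under 0.05 (Pknox1, -0.39). Of 36 tested Polycomb and Trithorax genes, which keep Hox clusters off or on, 0 passed, with 2 higher and 5 lower at an unadjusted p under 0.05. None of the 6 tested genes of retinoic acid signalling passed, with 2 at an unadjusted p under 0.05, both higher.

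Genes of the small intestine and markers of other cells are given beside the Hox values. Slc10a2, the bile acid transporter of the ileum, had 62.0, 41.3 and 50.002 RPKM in KO DSS, against 20.5, 23.3 and 27.9 RPKM in WT DSS, and rose (log2 difference 1.06, limma adjusted p = 0.037). Of 5 tested small intestinal genes, 5 were above 0 and 1 passed under DSS, against 0.764% of all genes. In untreated colonocytes, 6 of 6 were below 0, 5 of them at an unadjusted p under 0.05, against 9.09% of all genes, and 0 passed. In the interaction Slc10a2 and Fabp2, a fatty acid carrier of the small intestine, passed at 1.498 and 1.35 (limma adjusted p = 0.0356 each), 2 of 6 against 1.40% of all genes. Scnn1b, a sodium channel subunit of the distal colon, had a log2 difference of 0.05. Haematopoietic markers summed to 14.7 to 31.0 RPKM in KO DSS and to 7.69 to 12.3 RPKM in WT DSS, without overlap. All 5 tested had log2 differences above 0 (median 0.61), and 0 passed. At an unadjusted p under 0.05 there were 3 (Lyz2 1.09, Cd3g 0.83 and Cd3e 0.61), against 18.7% of all genes, 9.85% higher. Cd79a and Adgre1 were at 0.222 RPKM or less in each library. Endothelial markers summed to 0.805 to 0.992 RPKM in KO DSS and to 1.12 to 1.59 RPKM in WT DSS, without overlap. Epithelial markers summed to 19210 to 23180 RPKM in KO DSS and to 10877 to 16828 RPKM in WT DSS, also without overlap, and 0 of 12 passed. Such a sum is weighted to the most abundant genes. Over the 12 genes the median log2 difference was 0.09, with 9 above 0 and 3 below. Car1, an anhydrase of the proximal colon's surface cells, had a log2 difference of 1.29 (limma adjusted p = 0.157). The part of these markers in the Hox differences was not tested.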

How the data were processed

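Polyadenylated RNA of mouse colonocytes was sequenced in 12 stranded libraries, per the labels. The authors deposited 2 tables, for DSS and for untreated colonocytes, with a value in RPKM for each gene and library, per the file headers. The deposited tables also list the authors' log2 fold change, p-value, F score and false discovery rate. The submitters' processing notes name TopHat2 2.1.1, edgeR 3.30.3 and the builds GRCm38 and mm10; no source used here gives the counter, its strand setting or the annotation. The tables were scaled separately. RPKM values are whole multiples of 1 read for all 23790 genes (tolerance 0.02 reads), which gave the depths; 4 lines with repeated date names were left out.

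RPKM was tested as log2(RPKM + 1) with limma 3.58.1 (R 4.3.3, mean-variance trend, two-sided) for genes with 1 RPKM or more in at least 3 compared libraries, KO against WT within each table, and as an interaction over 12 libraries. Fold changes on this scale understate low genes. Called means a Benjamini-Hochberg adjusted p under 0.05 over all genes tested. The fits were checked on simulated data. No p was computed for the position shares or other sums. P-values measure the spread between libraries, which may be technical. The members and lists were chosen with earlier results of these data known. Every Hox gene may be named; of the other lists, called genes, those with the smallest p and a few set by name, among them Cdx1, Cdx2 and Prac1, were to be named, some of which are not reported here, and Skap2, Snx11, Calcoco1, Mtx2, Lnpk, Scnn1b and Car1 were chosen after their values were seen. Prac1, Prac2 and Haglros were not analysed here. Promoter windows are from RefSeq, and positions are 1-based. Alternatives were another pseudocount, other filters, no variance trend, median centring, a replicate block, the length trend removed (chosen after seeing the data) and leaving out each library.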

Additional observations from a re-analysis of the deposited data

Results flagged for a closer look

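Hoxa13 stood out because its KO against WT difference was itself different under DSS and in untreated colonocytes. The log2 difference was -0.82 under DSS and 0.22 in untreated colonocytes, and the difference between them was -1.04 (SE 0.18, limma adjusted p = 0.0342). For Hoxa13 all 3 KO DSS libraries lay below all 3 WT DSS libraries, and the untreated groups overlapped. The adjusted p ran from 0.0157 to 0.0907 over 18 alternatives, and 9 of them kept the call. Groups of 3 libraries were not screened for single outlying libraries.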

How the results depend on the processing

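Under DSS, 3 Hox genes passed, and 0 did with no filter on low values, 9 with the replicate number as a block and 8 with the length trend removed, while leaving out 1 library gave 0 to 12. For the interaction, 1 passed, 0 with no filter, 4 with the length trend removed and 0 to 4 with 1 library left out. For untreated colonocytes the count was 0 throughout. Over all genes, the 84 called under DSS became 45 with a filter of 0.1 RPKM, 1 with no filter, 398 with the replicate block, 295 with the length trend removed and 1 to 364 with 1 library left out. The 158 of the interaction became 4, 553 and 1 to 433 with no filter, the length trend removed and 1 library left out. The 2 of untreated colonocytes became 1 with no filter and 2 to 6 with 1 library left out. Same-numbered DSS libraries deviated from their group means with correlations of -0.11, 0.36 and 0.13, so the numbers were not taken to pair the samples. For Hoxd8 the DSS difference (0.02) reversed to -0.0526 with the length trend removed, and ran from -0.12 to 0.12 with 1 library left out. The difference in posterior share under DSS, -12.7 points, was -18.1 with paralog groups 10 to 13, -16.2 without Hoxa and -7.05 without Hoxb. In untreated colonocytes it was 2.68 points, and -1.37 without WT untreated replicate 3. The causes were not tested. The planned count tests of edgeR and DESeq2 were not run, because the deposited unit is RPKM. Directions were kept under every alternative by 21 of 22 Hox genes under DSS, by 23 of 24 in the interaction and by 6 of 23 in untreated colonocytes. Several alternatives cannot turn a sign: another filter, no variance trend and the replicate block leave the log2 difference as it is. Leaving out 1 library cannot turn it where KO and WT do not overlap within a table. With 3 libraries a group, 12621697 reads in the shallowest and no label for the stretch of colon, these values are limited.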
